A study of Caenorhabditis elegans with 2 samples.

Results

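The regions described here are the MDL-1 binding peaks of C. elegans that are centred on the E-box CACGTG. They were found as the peaks of the deposited optimal list whose summit, the position the authors' caller marked as highest, had the hexamer fully inside the window from 50 bp before to 50 bp after it in the ce11 (WBcel235) sequence. Of 1076 optimal peaks, 237 met this rule, 22% (exact 95% binomial interval 19.6 to 24.6), and 839 did not. The chromatin came from whole L2 larvae of mixed sex of the strain OP355, genotype unc-119(tm4063) III with the integrated transgene wgIs355, in 2 biological replicates of a single group. All values therefore come from animals with a tagged transgene, and no untagged or untreated group was analysed here. Antibody and experiment are labelled mdl-1. A further label, on both samples, has KLU-1 in place of MDL-1 as the GFP-FLAG fusion, and the files do not settle which name is right.

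MDL-1 is the worm counterpart of the mammalian Mad (MXD) proteins. It belongs to the basic helix-loop-helix leucine zipper factors, which bind DNA as pairs, and its partner is MXL-1, a Max-like protein. Mad-Max pairs bind the palindrome CACGTG and act mainly as repressors, opposite to Myc-Max in mammals. C. elegans has no known Myc gene of the vertebrate kind, and its relatives of the network include the MML-1 and MXL-2 pair, MXL-3 and HLH-30, the TFEB counterpart. Several of these factors read the same hexamer, and the bases next to it are 1 feature by which such factors are known to differ.

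The sequences below show the E-box of strong members, read on the plus strand of ce11 from the RefSeq copy of the assembly. Each has 60 bases, with the hexamer and the base to each side of it in capitals. Peaks are numbered E1 to E237 in falling order of the pooled signal. E1 to E14 and E16 are all shown, and the weaker members were picked out, so the sets do not count flanks. The first set has a G directly 5′ of the hexamer on both strands, so that the capitals read GCACGTGC. It holds 5 of the 20 strongest members, and it is shown because this flank was over-represented at summits. Of these, E1, E2 and E10 lay within 20 kb of mdl-1, a gene that the transgene may carry in extra copies.
E1, promoter window of mdl-1, chrX:6742199-6742258: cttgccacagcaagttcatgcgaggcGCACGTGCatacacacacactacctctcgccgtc
E2, intergenic, 4469 bp from the start of R03E9.2, chrX:6737720-6737779: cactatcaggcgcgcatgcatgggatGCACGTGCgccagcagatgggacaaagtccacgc
E10, intron of abts-4, chrX:6749492-6749551: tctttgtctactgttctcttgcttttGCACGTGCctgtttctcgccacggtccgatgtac
E18, promoter window of nhr-32, chrX:13251592-13251651: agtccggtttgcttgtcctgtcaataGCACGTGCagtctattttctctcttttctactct
E19, intron of spop-1, chrIII:10096529-10096588: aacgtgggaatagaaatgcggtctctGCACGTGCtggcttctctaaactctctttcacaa

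The second set has a G directly 5′ of the hexamer on 1 strand. Among the 20 strongest members it was the most frequent kind, closely followed by members with no such G. It includes peaks far from any start.
E4, intergenic, 8281 bp from the start of aakg-1, chrIII:12583663-12583722: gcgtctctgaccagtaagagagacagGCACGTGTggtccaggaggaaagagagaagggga
E7, intron and promoter window of T28B11.1, chrV:10715925-10715984: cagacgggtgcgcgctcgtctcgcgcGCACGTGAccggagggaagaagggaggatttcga
E8, intergenic, chrIV:2219607-2219666: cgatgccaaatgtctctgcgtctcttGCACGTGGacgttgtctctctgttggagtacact
E11, promoter window of ipla-6 and mif-4, chrIV:6336832-6336891: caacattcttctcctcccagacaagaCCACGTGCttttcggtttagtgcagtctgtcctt
E12, promoter window of tos-1, chrV:9344227-9344286: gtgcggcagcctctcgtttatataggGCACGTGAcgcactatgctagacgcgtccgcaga
E13, intergenic, chrII:2962659-2962718: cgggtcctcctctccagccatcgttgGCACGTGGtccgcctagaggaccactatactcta
E14, intron of Y43F8B.2, chrV:19529349-19529408: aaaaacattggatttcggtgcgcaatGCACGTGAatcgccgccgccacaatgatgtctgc
E16, intergenic, 3415 bp from the start of lpin-1, chrV:13657537-13657596: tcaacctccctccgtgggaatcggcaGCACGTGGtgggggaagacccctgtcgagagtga
E24, intron of aak-2, chrX:16796928-16796987: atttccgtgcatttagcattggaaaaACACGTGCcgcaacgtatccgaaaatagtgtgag
E35, promoter window of adh-1, chrV:11888118-11888177: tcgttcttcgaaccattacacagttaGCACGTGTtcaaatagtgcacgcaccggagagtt

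The third set has no G directly 5′ of the hexamer on either strand. It is shown because strong peaks often had this flank too, and not all of them, among them E20, are printed.
E3, intron of abts-4, chrX:6750252-6750311: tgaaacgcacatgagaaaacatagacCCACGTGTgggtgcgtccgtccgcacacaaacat
E5, non-coding RNA gene ZK829.13, chrIV:11956468-11956527: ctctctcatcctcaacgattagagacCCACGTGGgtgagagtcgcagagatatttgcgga
E6, intergenic, 4977 bp from the start of bcat-1, chrX:12872494-12872553: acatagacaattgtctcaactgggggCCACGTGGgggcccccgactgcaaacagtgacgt
E9, non-coding RNA gene R03E9.10, chrX:6744010-6744069: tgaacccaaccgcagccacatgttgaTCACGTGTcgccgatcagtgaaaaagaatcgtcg
E17, intron of aakg-1, chrIII:12568434-12568493: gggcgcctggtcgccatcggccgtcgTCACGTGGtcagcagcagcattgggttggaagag
E25, intron of hlh-30, chrIV:4026056-4026115: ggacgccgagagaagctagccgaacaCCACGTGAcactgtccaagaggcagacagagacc

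A single peak with a pair of E-boxes is shown because both copies had the same flank. In E43, in the first intron of dpyd-1, which encodes dihydropyrimidine dehydrogenase, the hexamer nearest the summit is in capitals and a further GCACGTGC stands upstream of it in lower case.
E43, promoter window of dpyd-1, chrX:5468039-5468098: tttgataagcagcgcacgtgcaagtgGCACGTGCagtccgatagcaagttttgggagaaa

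The base directly 5′ of the hexamer was G far more often at member summits than elsewhere in the genome. The 237 peaks held 250 E-boxes, since 224 peaks had 1 and 13 had 2. Of the 17729 CACGTG sites on the 6 nuclear chromosomes these 250 are 1.41%. Reading each palindrome from both strands, 47.6% of the 250 summit sites had a 5′ G on at least 1 strand (exact 95% interval 41.3 to 54), against 4217 of the 17479 other sites, 24.1% (23.5 to 24.8). A two-sided Fisher's exact test of this difference, adjusted over the 4 bases, gave p = 5.5e-15. In the strongest 1076 regions of each replicate's own list the share at summits was 45% in replicate 1 and 45% in replicate 2. A 5′ C was less common at summits, with 47.6% of sites (41.3 to 54), against 60.5% (59.8 to 61.3) of other sites, and an adjusted Fisher's exact p of 9.9e-05. For C the replicates gave 49.3% and 46.4%. For A the shares were 37.6% at summits and 42.6% elsewhere, with an adjusted exact p of 0.16. For T they were 39.6% and 40%, with an adjusted exact p of 0.95.

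The number of flanking G bases ordered the sites. Of genomic E-boxes with no 5′ G, 131 of 13393 lay at a member summit, 0.978% (exact 95% interval 0.818 to 1.16). With G on 1 strand it was 98 of 3919, 2.5% (2.03 to 3.04), and with G on both strands it was 21 of 417, 5.04% (3.14 to 7.6). The 3 intervals do not overlap. In replicate 1's own list the shares were 0.941%, 2.07% and 5.28%, and in replicate 2's they were 0.903%, 2.07% and 4.32%.

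**Figure D1:**
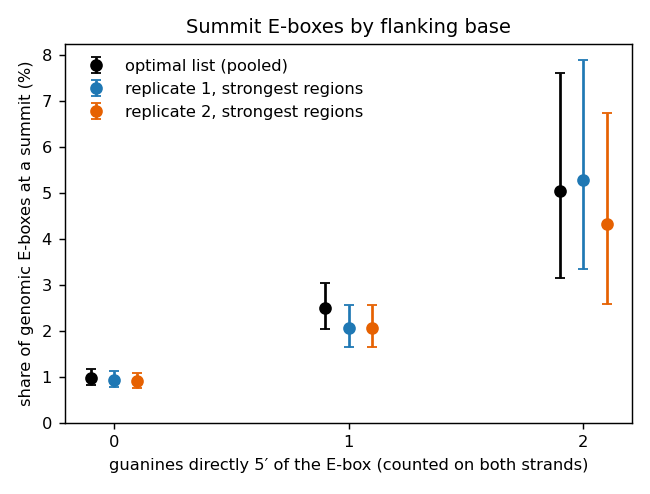
Share of all genomic E-boxes that lay within 50 bp of a summit (vertical axis, percent) by how many of the 2 strands carry a guanine directly 5′ of the hexamer, for the optimal list and for each replicate's strongest regions. Points are shares and bars are exact 95% binomial intervals; in all 3 lists the share is lowest with 0 guanines and highest with 2.

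Among the 10 distinct flank classes, GCACGTGC was at a summit most often, at 5.04% of its genomic copies, followed by ACACGTGC at 3.1% (2.14 to 4.32), GCACGTGA at 2.56% (1.73 to 3.63) and CCACGTGC at 2.08% (1.46 to 2.89). Their neighbours in this order have overlapping intervals. CCACGTGG was at a summit in 1% (0.676 to 1.42) of 3000 copies, and TCACGTGA, a flank known for TFEB-type factors, in 0.947% (0.49 to 1.65) of 1267 copies. ACACGTGT was lowest, with 6 of 1114 copies, 0.539% (0.198 to 1.17). In peak numbers the classes were more even, because the common flanks offer more sites. CCACGTGC supplied 35 summit sites, ACACGTGC 33, CCACGTGG 30 and GCACGTGA 30.

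Farther from the hexamer the differences were smaller. Counting each palindrome once from each strand, G at the first position took 28% of 500 readings at summits, against 13.2% of 34958 readings elsewhere. At the second position C took 22.6% at summits and 13.5% elsewhere, and T took 24.6% and 32.6%. At the third position T took 21.8% and 31.3%. At the fifth position A, the base that differed most, took 28.4% and 31.6%. The whole windows were also richer in G and C than the genome, with a median of 47.5% over the 101 bases around member summits against 35.4% of the genome, and the part of this base composition in the flank shares was not tested. With 2 bases on each side, CGCACGTGCA stood at a summit in 6 of its 25 genomic copies and CCCACGTGGG in 5 of its 19, 24% and 26.3%. These words were singled out after their values were seen.

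The G flank was not limited to 1 kind of member. It was found in 44.8% of the 116 sites under promoter peaks (exact 95% interval 35.6 to 54.3) and in 50% of the 134 under peaks outside promoter windows (41.2 to 58.8). On X it was found in 51.6% of 62 sites (38.6 to 64.5) and on the autosomes in 46.3% of 188 (39 to 53.7). Each of these intervals lies above the 24.1% of other genomic sites, and the pairs overlap one another. Peaks whose E-box had a 5′ G had a median signal of 94.8 per site, against 80.5 over the 131 sites without, a description with no test. No member shared an exact run of 24 bases near its E-box with another member.

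The hexamer sat close to the summit. The centre of the E-box nearest the summit was 15.5 bp away in the median member, with quartiles at 7.5 and 26.5 bp, and within 10 bp in 84 of 237 members. The rule allows at most 47.5 bp, so these values describe the spread inside the window. The pooled summits were built from both replicates, so distances to the replicates' own summits are largely set by the rule too and are given as a description. To these summits the same E-boxes were at a median distance of 17.5 bp in replicate 1 and 20.5 bp in replicate 2. In 184 of 237 members, 77.6%, the E-box was inside the 50 bp window of both replicates' own summits. Summits of replicate 1 and replicate 2 lay a median of 20 bp apart in E-box peaks and 29 bp in the 833 other optimal peaks found in both lists. In windows of the same width 300 bp to each side of the summit, the hexamer was present in 1.48% for E-box peaks and 1.61% for other peaks. It was present in 1.67% of all 992797 tiles of 101 bp in the genome.

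**Figure D2:**
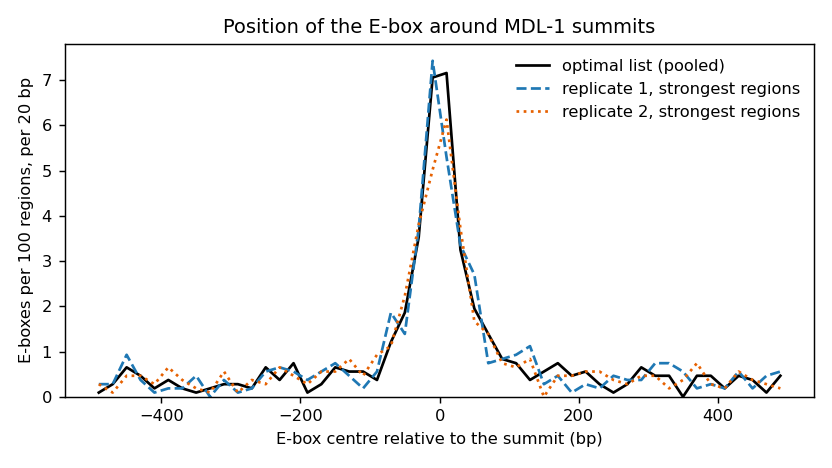
E-boxes per 100 regions in bins of 20 bp (vertical axis) by the distance of the E-box centre from the summit in bp (horizontal axis), for the 1076 optimal peaks and the 1076 strongest regions of each replicate. In the optimal list the bins next to the summit hold 7.06 and 7.16 E-boxes per 100 peaks, and the bin from 80 to 100 bp holds 0.836.

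At the edge of the rule, the 24 peaks whose hexamer reached 41 to 50 bp from the summit had a median signal of 86.5, with a range of 48.6 to 277. The 15 peaks just outside, at 51 to 60 bp, had a median of 73.9, with a range of 54.8 to 253. In all, 72 optimal peaks outside the rule had the hexamer elsewhere in the region. The 13 members with 2 E-boxes had them 9 to 59 bp apart, each pair at a different spacing, and a median signal of 102, against 84.6 for members with 1.

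E-box peaks were stronger than other optimal peaks. The signal is the authors' value per peak, on a scale that is not stated. Its median was 86.8 in E-box peaks, with quartiles at 61.5 and 135, and 70.4 in other peaks, with quartiles at 56.4 and 105. In replicate 1's own list the medians were 48.3 for E-box peaks and 38.9 for other peaks, and in replicate 2's they were 40 and 36.7. The groups overlapped over nearly their whole range, with minima of 48.5 and 48.3 in the pooled list and maxima of 1134 and 694. Of E-box peaks 146, or 61.6% (exact 95% interval 55.1 to 67.8), were above the median of the whole list, against 392 other peaks, 46.7% (43.3 to 50.2). The two-sided Fisher's exact test, adjusted over the 8 comparisons made between E-box peaks and other peaks, gave p = 0.00027. Peaks are not replicates, but each replicate's own list gave about the same difference, 62.4% against 46.9% in replicate 1 and 61.5% against 47.3% in replicate 2. E-box peaks were 6 of the 10 strongest peaks, 34 of the strongest 100 and 14 of the 108 weakest. Of the 6, 3 were within 20 kb of mdl-1. With peaks within 20 kb of mdl-1 or unc-119 left out, E-box peaks were 4 of the 10 strongest and 34 of the strongest 100, their highest signal was 725, against 694 in other peaks, and the excess above the median was 61% against 46.9%, with an adjusted Fisher's exact p of 0.00058. Among the stronger 538 optimal peaks alone the difference was 54.1% against 48.5%, with an adjusted Fisher's exact p of 0.33.

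**Figure D3:**
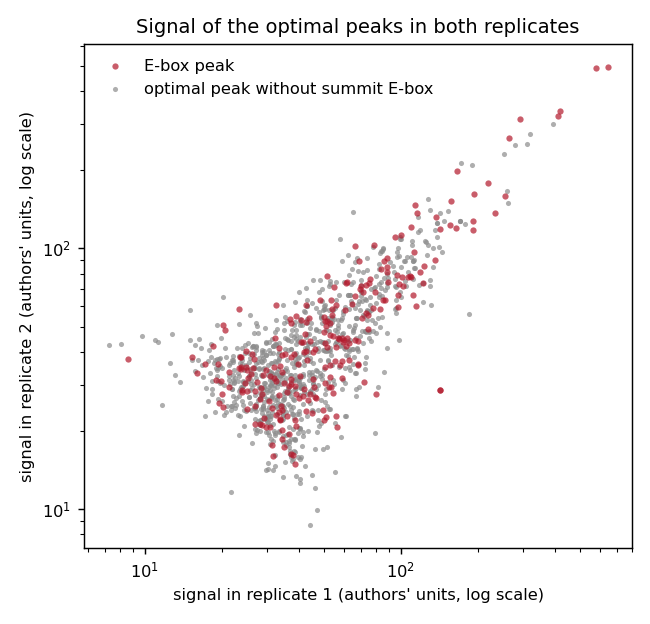
Signal of each optimal peak in replicate 1 (horizontal axis) and replicate 2 (vertical axis), both in the authors' units on log scales, for 237 E-box peaks and the 833 other peaks found in both replicate lists. Each point is a peak. E-box peaks reach the highest values, and the highest of all, E1 to E3, lay within 20 kb of mdl-1. Both kinds overlap through the rest of the range.

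Every E-box peak overlapped a region in both replicates' full lists of 30000, as did 833 of 839 other peaks. Among the strongest 1076 regions of both replicates there were 168 E-box peaks, 70.9% (64.7 to 76.6), against 535 other peaks, 63.8% (60.4 to 67), with an adjusted Fisher's exact p of 0.071. With the strongest 2152 regions of each replicate it was 94.1% against 86.5%, and the adjusted exact p was 0.0018. Across peaks, which are not independent replicates, Spearman's rho between the replicates' signals was 0.70 over 237 E-box peaks and 0.58 over 833 others. The log2 ratio of replicate 1 to replicate 2 had a median of 0.23 and an SD of 0.59 over E-box peaks. A pair of neighbouring peaks, E42 and E216, overlapped the same replicate region, and both take its signals of 143 in replicate 1 and 28.7 in replicate 2. E222 had the reverse, with 8.58 in replicate 1 and 37.7 in replicate 2.

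No difference in promoter location passed the test. Promoter windows covered the 1000 bp before and the 200 bp after each annotated start of a protein-coding gene. Such a window held the summit of 109 E-box peaks, 46% (39.5 to 52.6), and of 430 other peaks, 51.3% (47.8 to 54.7), with an adjusted Fisher's exact p of 0.21. Replicate 1 gave 46.3% against 49.2% and replicate 2 gave 47.8% against 49.5%. More than 2000 bp from any start lay 73 E-box peaks, 30.8% (25 to 37.1), against 222 others, 26.5% (23.5 to 29.6), also with an adjusted exact p of 0.21. The nearest start was 935 bp away in the median E-box peak (quartiles 234 and 2293 bp) and 796 bp away in the median other peak. Within promoter windows, which reach farther upstream than downstream, the summit was upstream of the start in 101 of 109 E-box peaks and in 401 of 430 other peaks. The median distance on either side was 204 bp over the 109 E-box peaks and 264 bp over the 430 others, with no test. Many C. elegans transcripts are trans-spliced, so an annotated start need not be the site where transcription begins.

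Of the 237 summits, 134 were intergenic, 80 in introns, 7 in 5′ UTRs, 5 in 3′ UTRs and 3 in coding exons, and 8 in genes of other biotypes. Intergenic summits made up 56.5% of E-box peaks and 56.9% of other peaks, introns 33.8% and 28%, genes of other biotypes 3.38% and 10%, and coding exons 1.27% and 1.31%, with no test. Coding exons hold 6703 of the genome's E-boxes, 37.8%, and 4 of these were at a member summit, 0.0597% (0.0163 to 0.153). For intergenic E-boxes it was 136 of 5147, 2.64% (2.22 to 3.12), for introns 1.88% (1.5 to 2.32) and for promoter windows 2.43% (2.01 to 2.9). On X 62 of 2466 E-boxes were at a summit, 2.51% (1.93 to 3.21), and on chromosome I it was 27 of 3368, 0.802% (0.529 to 1.16). X held 59 of the E-box peaks, 24.9% (19.5 to 30.9), and 237 of the others, 28.2%, with an adjusted Fisher's exact p of 0.32.

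E-box peaks were less often next to a non-coding RNA gene. A gene annotated as ncRNA, lincRNA, snoRNA, snRNA, tRNA, miRNA or rRNA lay within 200 bp of the summit in 35 E-box peaks, 14.8% (10.5 to 19.9), against 217 other peaks, 25.9% (22.9 to 29). The adjusted Fisher's exact p was 0.00069, and the replicates gave 15.6% against 26% and 14.1% against 26.1%. The broad annotation class ncRNA accounted for 33 of the 35. Genes for snoRNAs, which guide modification of ribosomal RNA, were near 2 E-box peaks, 0.844%, and 29 other peaks, 3.46%. Genes for snRNAs, parts of the spliceosome, were near 0 of 237 E-box peaks, which allows a share of up to 1.27%, taken as 3 counts and for counting error only, and near 11 of 839 other peaks. For tRNA genes the counts were 3 and 13, 1.27% and 1.55%, and for miRNA genes 1 and 5, 0.422% and 0.596%. The shares for tRNA and for miRNA genes were thus close, and no single class was tested.

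A pair of words known from an earlier analysis of these data to be frequent at MDL-1 summits was counted, and GAGAGA was less frequent where the E-box was present. The words were thus not chosen independently of these peaks, most of which have no E-box. In member windows the E-box itself also takes up room, and the part of either in the differences was not tested. GAGAGA, on either strand within 50 bp of the summit, was found in 56 E-box peaks, 23.6% (18.4 to 29.6), against 322 other peaks, 38.4% (35.1 to 41.8), with an adjusted Fisher's exact p of 0.00017. The replicates gave 24.3% against 36.5% and 24.4% against 35.1%. GACGCA was found in 39 E-box peaks, 16.5% (12 to 21.8), against 192 others, 22.9% (20.1 to 25.9), and the adjusted exact p was 0.071. In the replicates' own lists it was 0.44 for replicate 1 and 0.64 for replicate 2. With the E-box sought within 25 bp of the summit it was 13.2% against 23%, and the adjusted exact p was 0.008. Of all genome tiles of 101 bp, 5.18% held GAGAGA and 2.02% held GACGCA. In the windows 300 bp to each side of E-box peak summits it was 6.12% and 1.9%. The shares in E-box peaks were above these levels, which is no test, since the words were already known to be frequent at MDL-1 summits. Neither word was present in 156 E-box peaks, 65.8%, against 412 other peaks, 49.1%. G and C made up a median of 47.5% of the 101 bases in E-box peaks and 50.5% in other peaks. No single arrangement held many copies. The 105 copies of GAGAGA in members fell into 81 arrangements of distance and orientation, the most frequent with 3 copies. The 42 copies of GACGCA fell into 31. The most frequent held 4 copies, in which the last 2 bases of GACGCA are the first 2 of the E-box read on the same strand, and 5 copies in all overlapped the E-box.

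**Figure D4:**
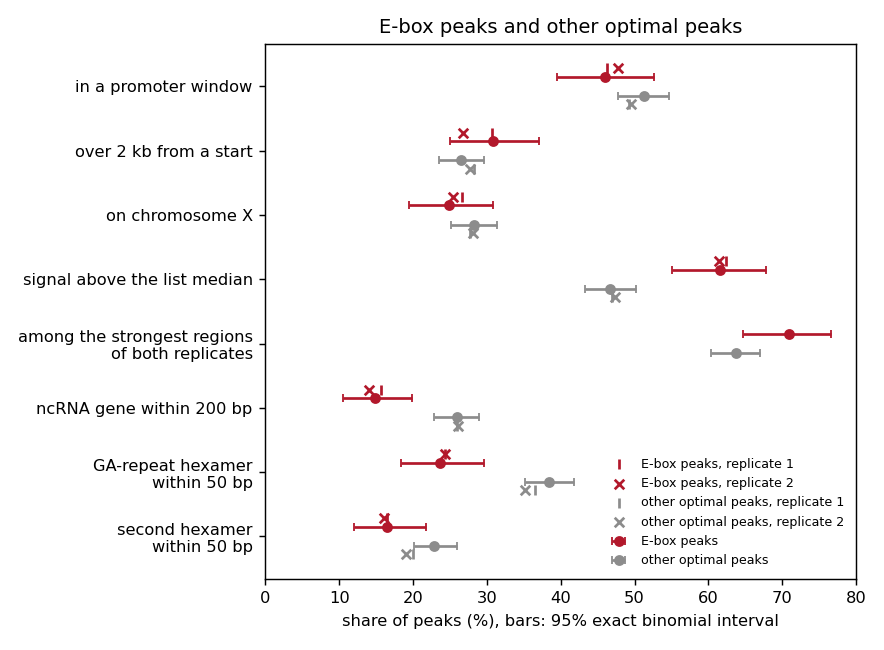
Share of peaks (horizontal axis, percent) with each of 8 properties among the 237 E-box peaks and the 839 other optimal peaks, with exact 95% binomial intervals, and the same shares in each replicate's own list; the rows end with GAGAGA (the GA-repeat hexamer) and GACGCA (the second hexamer). E-box peaks stand apart in signal, 61.6% against 46.7%, in ncRNA genes, 14.8% against 25.9%, and in GAGAGA, 23.6% against 38.4%.

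An E-box peak had its summit in the promoter window of 122 protein-coding genes, 0.611% of 19973, while any optimal peak did so for 614 genes, 3.07%. For 113 of the 122 no optimal peak without a summit E-box lay in the window. Of the 109 peaks, 14 fell in the windows of 2 or more genes and do not single out 1. Counting only the nearest start of each peak left 106 genes.

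The strongest promoter member lay at mdl-1 itself, a gene that the transgene may carry in extra copies, with signals of 642 in replicate 1 and 497 in replicate 2 and a summit 94 bp upstream of the start. It was the highest in both replicates. The peak at T28B11.1 had 256 in replicate 1 and 159 in replicate 2, with its summit 693 bp upstream. Next came a peak shared by ipla-6, a phospholipase A2-like gene, and mif-4, a gene of the macrophage migration inhibitory factor family, at chrIV:6336737-6336980, with 193 in replicate 1 and 162 in replicate 2. It was followed by tos-1 at chrV:9344161-9344422, with 192 and 127 and a summit 85 bp upstream of the start. nhr-32, a nuclear hormone receptor gene, had 113 and 146. The order of neighbours in this list changed between the replicates, while mdl-1 led in both.

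Genes for enzymes among the 25 strongest promoter members included the following, grouped after their values were seen. bcat-1, the branched-chain amino acid aminotransferase, had a pooled signal of 198, with the summit 456 bp upstream. alh-8, an aldehyde dehydrogenase gene, had 88.7 in replicate 1 and 91.6 in replicate 2 at 387 bp upstream. adh-1, an alcohol dehydrogenase gene, had 106 and 77.4 at 98 bp upstream. These values are single regions, with no test of their own. dpyd-1 had 97.3 and 66.2, with the summit 196 bp downstream of the start. ndk-1, a nucleoside diphosphate kinase gene, shared a peak with F25H2.6, with 88.2 and 80.9 and a summit 48 bp upstream. hxk-3, a hexokinase gene of the first step of glycolysis, had 72.8 and 72.5, at 77 bp downstream of the start. In the metabolic gene lists, an E-box promoter peak was found at 1 of 26 genes of glycolysis and gluconeogenesis, which was hxk-3. Lipid metabolism had 0 of 34, the tricarboxylic acid cycle 0 of 26 and one-carbon and nucleotide metabolism 0 of 20. The share over all protein-coding genes was 0.611%, so 0 is a likely count in lists this short. These lists do not hold bcat-1, alh-8, adh-1, dpyd-1 or ndk-1. Whether the named enzymes share a theme was not tested.

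Further genes among the 25 have roles in transcription or chromatin. The list of chromatin and Sin3 complex genes had 0 of 26 with an E-box promoter peak and 3 with any optimal peak. It does not hold drap-1, met-1 or bet-2, so it does not count all chromatin genes. drap-1, a gene for a subunit of the NC2 repressor of transcription initiation, had signals of 112 in replicate 1 and 66.4 in replicate 2. met-1, a histone H3 lysine methyltransferase gene, had 97.5 and 59.6, and bet-2, a bromodomain gene, had 86.4 and 63.2. Apart from these roles, cls-2, a CLASP microtubule protein gene, shared its peak with R107.5, whose start was nearer. The remaining peaks of the 25 were at ZK470.2, C36E6.2, D2023.1, F56C9.10, Y54G11A.7, Y39G10AR.11, dpsm-1, K02A6.3, C33A11.2 and mstr-1. No role is given here for the genes at these remaining peaks. Over the 25 peaks, the pooled signal ran from 142 to 1134.

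**Figure D5:**
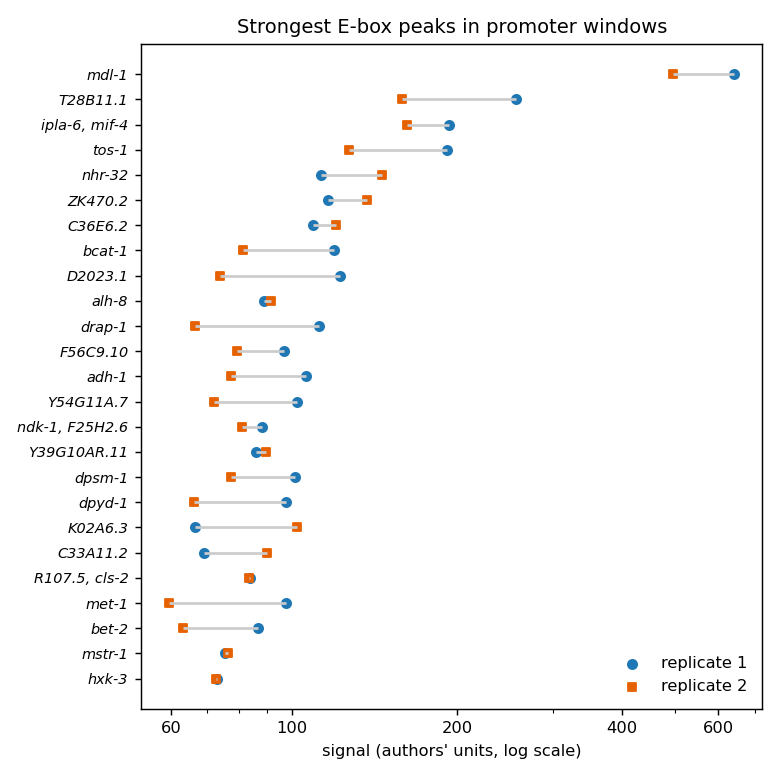
Signal in replicate 1 (circles) and replicate 2 (squares) of the 25 strongest E-box peaks with a summit in a promoter window, in the authors' units on a log scale, named by the gene or genes whose window holds the summit. mdl-1 stands above all others, with 642 and 497, and hxk-3, the weakest of the 25 by pooled signal, has 72.8 and 72.5.

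Strong members also lay outside promoter windows. E2, E3, E9 and E10 lay within 20 kb of mdl-1, with pooled signals of 1054, 764, 366 and 361. E3 and E10 were in introns of abts-4, an anion transporter gene. E4, 8281 bp from the start of aakg-1, which encodes a regulatory gamma subunit of AMP-activated kinase, had 411 in replicate 1 and 323 in replicate 2. E5 was inside the non-coding RNA gene ZK829.13, 3254 bp from the start of gdh-1, the glutamate dehydrogenase gene, with 293 and 314. E6, 4977 bp from the start of bcat-1, had 264 and 265, so bcat-1 had a member at its promoter and a stronger one farther upstream. E8, E13 and E14 were nearest to the starts of T04C4.3, srw-60 and Y43F8B.2, at 2783, 4080 and 2596 bp.

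Some further members were picked out after their values were seen. An intron of aakg-1 held E17, with 137 in replicate 1 and 132 in replicate 2. An intron of aak-2, a gene for a catalytic subunit of the same kinase, held E24, with 95 and 110. aakg-3, another gamma subunit gene, had E62 at 4838 bp, with 69 and 69.7. None of E17, E24 and E62 had its summit in a promoter window, and subunit genes without a member were not counted. atgl-1, a triglyceride lipase gene, was nearest to E15, 1801 bp away, with 164 and 120, and lpin-1, the lipin gene of lipid synthesis, to E16, with 156 and 123. The summit of E15 itself lay in a 3′ UTR of another protein-coding gene, C05D11.8. The nearest start need not be the gene that a site acts on.

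Among the genes of the Max network only mdl-1 had an E-box peak in its promoter window. hlh-30 had an optimal peak without a summit E-box in its promoter window, and E25 in an intron, 993 bp downstream of a start, with 100 in replicate 1 and 113 in replicate 2. The nearest E-box summit was 7959 bp from a start of mxl-3, 39278 bp from mml-1, 123411 bp from mxl-1 and 1494334 bp from mxl-2. For klu-1, the gene in the disagreeing label, it was 1218874 bp, and for unc-119, the gene mutated in this strain, 368321 bp.

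E-box promoter peaks were also counted by gene list, with no test. Of 28 lists, 10 had at least 1 gene with such a peak and 18 had 0. The share over all protein-coding genes was 0.611%, so 0 or 1 is a likely count in a short list. Nuclear hormone receptors had 4 of 269, 1.49% (0.407 to 3.76), led by nhr-32 with a pooled signal of 262, nhr-68 with 61.5 and nhr-42 with 48.8. The nhr-68 peak was nearer to the start of H12C20.7. Cytosolic ribosomal proteins had 1 of 76, rpl-14 with 124, although 16 of the 76 had an optimal peak of some kind. Histone genes had 1 of 72, his-72 with 59, out of 7 with any peak. The heterochronic genes of developmental timing had 0 of 15 out of 4 with any peak, and stress response genes 0 of 33 out of 7. Over all genes, 122 of the 614 with a peak in the window had an E-box peak.

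In other lists a single gene carried an E-box promoter peak. These were hxk-3 of 26 glycolysis and gluconeogenesis genes, atg-9, an autophagy membrane protein gene with a pooled signal of 82.6, of 26, and pmk-2, a p38 kinase gene of innate immunity with 97.8, of 24. sys-1, a beta-catenin gene of Wnt signalling, had 84.6, and cgh-1, an RNA helicase gene of the microRNA complex list, had 75.8. Besides mdl-1, the list genes nhr-32, nhr-68, rpl-14, hxk-3, pmk-2 and sys-1 also had an E-box promoter peak among the strongest regions of both replicates, whereas nhr-42, nhr-60 and cgh-1 had it in replicate 1 alone and atg-9 and his-72 in replicate 2 alone. Symbols of the chemoreceptor kind, a pattern that also takes in the srp serpin genes, had 1 of 1365, 0.0733% (0.00185 to 0.407), an interval below the background. Only 3 of the 1365 had any optimal peak, against 3.07% of all protein-coding genes, so the low count was not particular to E-box peaks. The gene with an E-box peak was srv-7 with 52.3, in neither replicate's own list. Cuticle collagens had 0 of 176, out of 1 with any peak. Intervals on 1 gene are wide in short lists, from 0.0973% to 19.6% for a list of 26.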

How the data were processed

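The files are ChIP-seq peak lists. Per the labels, chromatin of 2 biological replicates of 1 group was sonicated. The authors deposited, in narrowPeak format, 30000 regions per replicate and for the pooled replicates, and an optimal list thresholded on the irreproducible discovery rate, made, per the file headers, from the replicates' alignments and a further file whose kind they do not name. The labels name a possible control, not analysed here. Column 7 is the authors' deposited signal per peak, of unstated scale, and column 9 a deposited −log10 q-value, which was read but not used. The offset in column 10, another deposited value, gave the summit. No aligner, caller or threshold value is named in the labels. Read depth is unknown. The ce10 lists were not used.

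Genome sequence was RefSeq's copy of WBcel235, the same assembly as ce11, and gene models were Ensembl release 115. Region and chromosome ends were checked to fit. Shares have exact Clopper-Pearson 95% intervals, which cover counting error only. E-box peaks were compared with other peaks by two-sided Fisher's exact tests (scipy 1.17.1), Benjamini-Hochberg adjusted over 8 comparisons, and flanks over 4 bases, at a threshold of 0.05. The finder and test were checked on simulated sequences. Each share was recomputed in the strongest 1076 regions of each replicate. Overlap meant at least 1 bp.

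The members, gene lists, words and tests were chosen with earlier results of these data known, and flank classes, longer words, spacings and G counts were described after the data were seen. Named genes were those at the 25 strongest promoter members, up to 3 per gene list, the nearest or enclosing gene of the 10 strongest members outside promoter windows, and 8 fixed genes of the network and strain. aak-2, aakg-3, atgl-1 and lpin-1 were named outside this rule, after their values were seen. Of the list symbols, 8 matched no protein-coding gene. Sequences shown are E1 to E14, E16 and some weaker members picked out, all with no UTR or coding base in the 60 printed.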

Additional observations from a re-analysis of the deposited data

How the results depend on the processing

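Each result was recomputed under other settings, giving 83 values, of which 73 kept their direction and their side of the threshold or, for counts, stayed within 1.5 times. Among the stronger 538 optimal peaks, 146 were members. The excess of E-box peaks above the median signal was there 5.64 percentage points and no longer passed, and the difference in membership of both replicates' lists was -0.538 points, a reversal of a difference that had not passed, and the cause was not tested. With the strongest 2152 regions of each replicate, that difference was 7.56 points and passed. With the E-box sought within 25 bp, the GACGCA difference was -9.82 points and passed, and so did the difference in a 5′ T, at -8.24 points; the cause was not tested. The 5′ T difference was 0.177 points among the stronger peaks. Leaving out a replicate, it lay between 1.11 and 1.89 points, and the difference in peaks over 2000 bp from a start between -0.84 and 2.53 points. None of the reversed values passed the test in its own setting. The 5′ G difference passed in all 6 other settings, with 21.2 points against the E-boxes of pooled regions outside optimal peaks and 23.3 points outside coding exons. None of these settings left out the peaks near mdl-1. With 2 replicates of 1 group and no read counts, intervals cover counting error only, and no group could be compared with another.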
